A study of Mus musculus with 6 samples.

Results

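Genes of iron uptake, storage and hepcidin were examined in livers of male BALB/c mice kept in isolation and in control livers. The list held 10 genes: Tfrc, Tfr2, Trf, Hamp, Slc40a1, Slc11a2, Fth1, Ftl1, Aco1 and Ireb2. They were read from every probe set, the small set of short probes by which an Affymetrix array reads a transcript, that the platform annotation gives to exactly 1 of these symbols. This left 19 probe sets of 8 genes, among 45037 probe sets in all. Trf, the plasma iron carrier transferrin, and Ftl1, the ferritin light chain, have no probe set of their own in that annotation and were not read. The genes were chosen by their known function, by a proposal made with the signal differences between control and isolated arrays in view, so the differences of its members are given as a description and not as a test.

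Total liver RNA was hybridised to 6 arrays, 3 for control mice and 3 for mice isolated for 30 days. All mice were 10 weeks old, had entered the study at 4 weeks, were housed 5 per cage for an acclimatisation of 10 days, and ate a standard diet freely. Isolated mice then lived 1 per cage in boxes that kept them from social contact, with less bedding than controls. The housing, diet, strain and sex of all groups were otherwise the same in the labels, which state no genotype change and no drug. The labels number the samples but do not say that each came from a separate mouse, so the spread between arrays may be partly technical.

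Iron travels in plasma bound to transferrin and enters cells through the transferrin receptor, encoded by Tfrc. Most iron in hepatocytes is held in ferritin and leaves through the exporter ferroportin, encoded by Slc40a1. The liver also makes hepcidin, the peptide hormone encoded by Hamp, which binds ferroportin on other cells and has it degraded. The RNA-binding proteins encoded by Aco1 and Ireb2 sense cellular iron: when iron is scarce they stabilise Tfrc transcripts and block ferritin translation. Changes in ferritin translation or in ferroportin protein are not visible in transcript levels.

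The promoters of Tfrc and Hamp are shown because Tfrc is the member gene whose probe sets were called and Hamp is the hormone gene of the list. RefSeq windows of build GRCm38.p6 were at hand for 7 of the 10 genes. The stretch before the first annotated Tfrc start is chr16:32608646-32608895 on the plus strand, and that before the Hamp start is chr7:30944030-30944279 on the minus strand. Each is printed 5′ to 3′ over the 250 bases before the start. Capitals mark matches on either strand to GGCGCC, the core of the BMP response element, to TTCNNNGAA, a STAT site, to ACGTG, the core of the hypoxia response element, or to TTGCNNAA, a C/EBP site.
Tfrc: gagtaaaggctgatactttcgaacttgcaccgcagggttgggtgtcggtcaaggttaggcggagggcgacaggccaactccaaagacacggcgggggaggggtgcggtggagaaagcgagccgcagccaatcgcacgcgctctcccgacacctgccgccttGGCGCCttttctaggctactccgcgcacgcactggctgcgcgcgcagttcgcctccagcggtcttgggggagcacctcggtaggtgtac
Hamp: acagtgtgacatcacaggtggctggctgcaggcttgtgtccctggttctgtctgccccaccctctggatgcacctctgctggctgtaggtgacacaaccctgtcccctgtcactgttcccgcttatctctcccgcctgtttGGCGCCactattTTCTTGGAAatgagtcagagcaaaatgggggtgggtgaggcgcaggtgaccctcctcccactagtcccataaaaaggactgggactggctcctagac
The Hamp window held GGCGCC from 109 bases and TTCNNNGAA from 97 bases before the start, with no overlap between them. Among 32851 promoter windows of this length, 9.59% held GGCGCC, 7.02% held TTCNNNGAA, 16.6% held ACGTG and 9.56% held TTGCNNAA. The Tfrc window held GGCGCC from 89 bases before the start. A second annotated Tfrc start has ACGTG from 228 bases before it. The first bases of that match are the last of the printed stretch, unmarked, and the rest is not printed. These matches describe letters and say nothing about binding.

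Signals are MAS5 values, a linear brightness per probe set, and each is compared only with the same probe set on other arrays. The median signal per array lay between 18.4 and 22.1, and arrays of the same group correlated at 0.969 to 0.974 in log2 signal over the tested probe sets. All 9 hepatocyte markers measured, Alb and Ttr among them, were above the filter described next. Differences were fitted with limma on log2(signal + 2) over the 22519 probe sets in the upper 50% by mean value, and a call is an adjusted p under 0.05. Fold changes are on that scale, so those of dim probe sets come out too small. Of the 19 member probe sets, 17 passed this filter, and 1 probe set each of Tfrc and Aco1 did not.

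Tfrc was the 1 member gene with a call: 2 of 17 tested member probe sets were called higher in isolated livers, both of Tfrc, against a background of 0.773% of all tested probe sets. In either direction the background was 1.63%. None of the 17 was called lower by limma, against a background of 0.857%. At an unadjusted p under 0.05, 2 of the 17 were higher, both of Tfrc, and 2 were lower, against 6.89% and 4.53% of all tested probe sets. The groups did not overlap for 4 of the 17, against 15.4% of all tested probe sets. Isolated arrays were the higher ones for 3 of these (background 9.62%) and the lower ones for 1 (background 5.79%). The rule used this contrast, so nothing is read from these counts. The median log2 difference was 0.0014 over the 17 and 0.04 over all tested probe sets.

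Tfrc, the receptor that takes up transferrin, had the brightest of its probe sets, 1452661_at, at 262, 244 and 205 in control replicates 1, 2 and 3. In isolated replicates 1, 2 and 3 the same probe set read 650, 789 and 634. Every isolated array lay above every control array. The means were 237 ± 28.9 and 691 ± 85.4 (SD, n = 3 per group), a 2.90-fold difference with a 95% interval of 2.27 to 3.70. On the log2 scale this was 1.54 ± 0.17 (SE).

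The Tfrc probe set 1422966_a_at read 37, 34.97 and 9.95 in control replicates 1 to 3 and 73.5, 74.3 and 87.4 in isolated replicates 1 to 3. The groups again did not overlap, and control replicate 3 lay well below the other controls. The difference was 3.10-fold, with a 95% interval of 1.88 to 5.12. Its log2 difference was 1.63 over all arrays and 1.08 without control replicate 3, where it kept its call. The call was lost without isolated replicate 3, at a log2 difference of 1.56, without a filter, with quantile normalization, without the intensity trend and with a robust trend. The third Tfrc probe set, 1422967_a_at, was below the filter, whose floor corresponds to a signal of 18.0. It read 14.0, 10.1 and 2.65 in the control livers and 9.25, 13.2 and 9.34 in the isolated livers, so the groups overlapped.

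**Figure D1:**
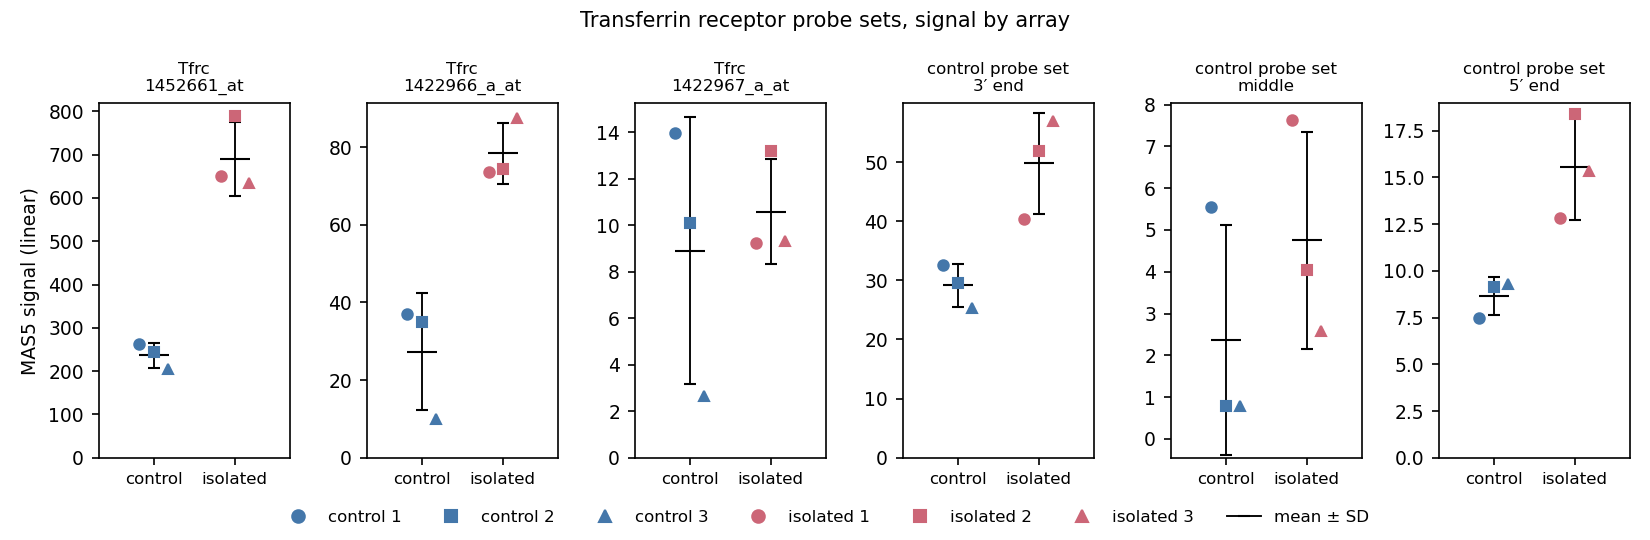
MAS5 signal on a linear axis for the 3 Tfrc probe sets and the 3 transferrin receptor control probe sets, each panel with its own scale, with 1 point per array and bars for the mean ± SD (n = 3 per group). Isolated arrays lie above all control arrays for 1452661_at (634 to 789 against 205 to 262), for 1422966_a_at and for the 3′ and 5′ control probe sets, while the groups overlap for 1422967_a_at and the middle control probe set.

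Affymetrix arrays also carry 3 control probe sets on the mouse transferrin receptor transcript, aimed at its 3′ end, its middle and its 5′ end. They read the same transcript in the same RNA and are no independent replicate of the Tfrc values. The 3′ control probe set read 32.6, 29.5 and 25.3 in the control livers and 40.4, 51.9 and 57.0 in the isolated livers. The 5′ one read 7.47, 9.15 and 9.28 against 12.8, 18.4 and 15.3. In both, each isolated array lay above each control array. The middle one read 5.55, 0.776 and 0.799 against 7.63, 4.05 and 2.58, and its groups overlapped. The fold was 1.66 for the 3′ control probe set on the log2(value + 2) scale. No fold is given for the middle and 5′ ones, whose signals lay near or under 18.0, the floor of the filter. These control probe sets were set apart from the fit and carry no call.

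The 3′ to 5′ ratio of these control probe sets is a weak reading of RNA and labelling quality here, since the 5′ signals lay near or under that floor and the pseudocount shapes the ratio. Its log2 value was 1.55 ± 0.30 in controls and 1.56 ± 0.19 in isolated mice (SD, n = 3 per group), a difference of 0.01 (two-sided exact permutation test, p = 0.9, adjusted p = 1 over 4 ratios). With 3 arrays per group this test cannot give a p under 0.1. The actin and Gapdh control ratios differed by -0.04 and -0.03 on the log2 scale, with exact permutation p of 0.8 and 0.2 (adjusted p of 1 and 0.8).

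Tfr2 encodes the second transferrin receptor, which in hepatocytes takes part in sensing loaded transferrin. Its probe set 1459994_x_at read 3477, 3424 and 3801 in the control livers and 3299, 2665 and 3550 in the isolated livers. The groups overlapped, with isolated replicate 2 the lowest array. The fold was 0.884, with a 95% interval of 0.730 to 1.07. The second Tfr2 probe set, 1425381_a_at, gave 0.893, with an interval of 0.721 to 1.11. Neither was called.

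Slc11a2 encodes DMT1, the carrier that moves ferrous iron across membranes, including out of endosomes after transferrin uptake. Its 4 probe sets were dim. Their log2 differences were 0.41 for 1441709_at, 0.50 for 1452078_a_at, 0.34 for 1417584_at and 0.001 for 1426441_at. The 95% intervals of these differences were wide and overlapped. The probe set 1441709_at read 67.3, 50.8 and 58.6 in the control livers and 73.5, 80.1 and 82.4 in the isolated livers, without overlap of the groups. Its fold was 1.33, with a 95% interval of 0.981 to 1.81, and it was not called. The probe set 1452078_a_at had a fold of 1.41 and an interval of 0.969 to 2.06, with 1 control inside the isolated range.

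The probe set 1417584_at of Slc11a2 read 41.8, 51.9 and 43.9 in the control livers and 35.6, 80.9 and 69.1 in the isolated livers. Isolated replicate 1 lay below all controls and the other two lay above them. The last, 1426441_at, read 53.2 ± 7.82 and 53.2 ± 7.35 (SD, n = 3 per group). None of the 4 was called.

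**Figure D2:**
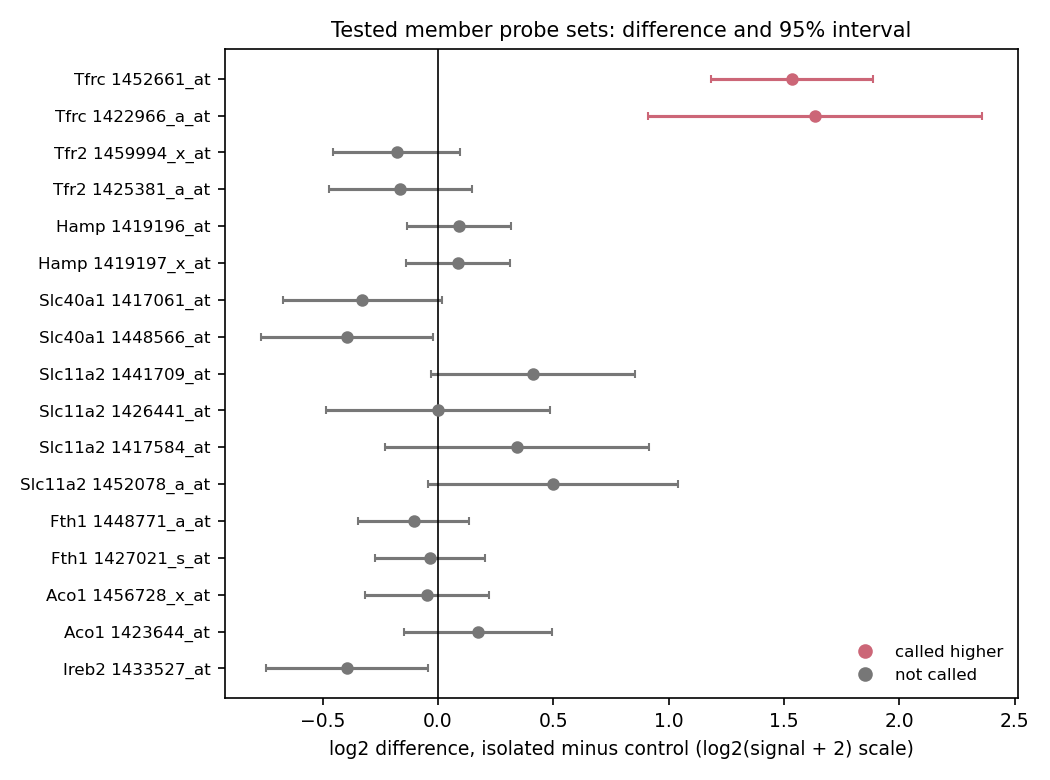
Log2 difference, isolated minus control on the log2(signal + 2) scale, for the 17 tested member probe sets, with points for the limma estimate and bars for its 95% interval, not adjusted for the number of probe sets. The Tfrc probe sets lie at 1.54 and 1.63, and all other members lie between -0.39 and 0.50.

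Slc40a1, the iron exporter ferroportin, gave lower mean signals in isolated livers on both of its probe sets, and neither was called. The probe set 1417061_at read 1786, 1663 and 2297 in the control livers and 1743, 1169 and 1692 in the isolated livers. Control replicate 3 was the highest and isolated replicate 2 the lowest, and the remaining 4 arrays lay between 1663 and 1786. The fold was 0.797, with a 95% interval of 0.627 to 1.01.

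The Slc40a1 probe set 1448566_at read 751, 688 and 987 against 646, 480 and 722, which is 0.761-fold with an interval of 0.588 to 0.985. That interval is for this probe set alone and is not adjusted over the 22519 tested. The log2 difference of 1417061_at was -0.33 over all arrays, -0.19 without control replicate 3 and -0.14 without isolated replicate 2. That of 1448566_at was -0.39 over all arrays, -0.24 without control replicate 3 and -0.23 without isolated replicate 2.

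Hamp, the hepcidin gene whose promoter is printed above, varied little between the 6 arrays and was not called on either of its probe sets. The probe set 1419196_at gave 9616, 9191 and 9490 in the control livers and 10262, 9077 and 10861 in the isolated livers. Isolated replicate 2 was the lowest array and isolated replicate 3 the highest, so the groups overlapped. The means were 9432 ± 218 and 10067 ± 908 (SD, n = 3 per group), a fold of 1.06 with a 95% interval of 0.911 to 1.24. The coefficient of variation was 2.31% in controls and 9.02% in isolated mice, against a median of 17.0% over all tested probe sets. That median covers all signal levels and is not matched to Hamp in brightness. Of like brightness, Alb read 10662 ± 403 and 10458 ± 492, and Ttr 10507 ± 317 and 10672 ± 439, in control and isolated mice. The low variation is thus not particular to Hamp.

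The second Hamp probe set, 1419197_x_at, gave a fold of 1.06 with an interval of 0.909 to 1.24. Mice carry a close copy of Hamp, Hamp2, and the annotation alone does not show how far these probes tell the copies apart. The highest signal on any probe set was 14600 to 16700 per array, so Hamp was read in the upper part of the scale. Whether the signal is still proportional to RNA there was not tested.

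Fth1 encodes the ferritin heavy chain, which oxidises iron for storage. The probe set 1448771_a_at read 8286, 7929 and 8933 in the control livers and 8161, 6772 and 8521 in the isolated livers, with overlap of the groups. Its fold was 0.929, with a 95% interval of 0.786 to 1.099. The probe set 1427021_s_at gave 0.977 and an interval of 0.829 to 1.15, and the sign of its log2 difference turned with median centring. Neither was called.

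Aco1 encodes iron regulatory protein 1, which acts as cytosolic aconitase when it carries an iron-sulfur cluster. The probe set 1423644_at read 688, 669 and 771 in the control livers and 895, 684 and 831 in the isolated livers, and the groups overlapped. Its fold was 1.13, with a 95% interval of 0.902 to 1.41. The probe set 1456728_x_at gave 0.967, with an interval of 0.803 to 1.17 and a sign that turned with median centring. The third, 1447080_at, was below the filter, at 12.9 ± 0.67 and 13.5 ± 1.53 (SD, n = 3 per group).

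Ireb2 encodes iron regulatory protein 2, which is broken down when iron is plentiful. Its 1 probe set, 1433527_at, read 512, 452 and 550 in control replicates 1 to 3 and 390, 326 and 439 in isolated replicates 1 to 3. Each isolated array lay below each control array, with 439 and 452 as the nearest pair. The means were 505 ± 49.2 and 385 ± 56.6 (SD, n = 3 per group), a fold of 0.761 with a 95% interval of 0.597 to 0.970, not adjusted over the tested probe sets. It was not called, also not in any of the 17 alternatives tried, over which its log2 difference ran from -0.49 to -0.28.

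Isolated replicate 2 was the lowest of the 6 arrays for 9 of the 17 tested member probe sets, or 52.9%, and for 28.8% of all tested probe sets. It also had the lowest trimmed mean signal, at 92.0, while the other arrays ran from 92.4 to 110. Control replicate 3 was the highest array for 8 of the 17 and for 27.5% of all tested probe sets. Its trimmed mean was 108, against 92.4 and 94.0 for control replicates 1 and 2. For the Tfrc probe set 1452661_at, isolated replicate 2 was the highest array instead. Tfr2 and Slc40a1 were also read without this array. It was picked as their lowest one, so leaving it out must raise their isolated means. Its part in their lower isolated means was therefore not tested. Without it, the log2 differences of Tfr2 were -0.06 and -0.04, against -0.18 and -0.16 over all arrays, and both Slc40a1 differences were smaller, as given above.

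**Figure D3:**
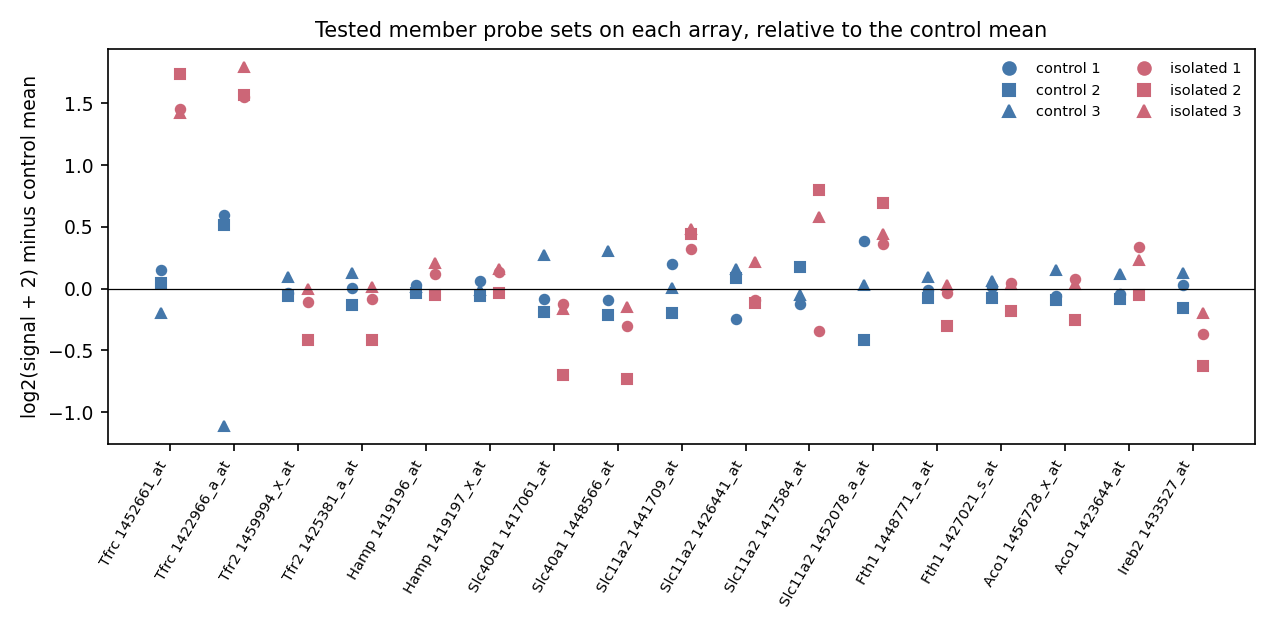
Value of each tested member probe set on each array as log2(signal + 2) minus the mean of the 3 controls, with circles, squares and triangles for replicates 1, 2 and 3. The isolated arrays stand clear of the controls for the Tfrc probe sets, and isolated replicate 2 (red squares) is the lowest array for 9 of the 17 probe sets.

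Other genes of iron handling were read from 6 lists. These were chosen with earlier results of these data known, so their counts and p-values are a description. Of 84 genes measured, 76 passed the filter, of which 1 was called lower and 0 higher by limma, against 0.847% and 0.901% of all genes by 1 probe set each. At an unadjusted p under 0.05, 8 were lower and 4 higher, which is 10.5% and 5.26% of the 76, against 4.4% and 7.94% of all genes. The groups did not overlap for 15.8% of the 76 genes and for 16% of all genes. The median log2 difference was -0.03.

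The 1 called gene was Cebpb, a transcription factor of the C/EBP family that takes part in the liver's inflammatory response. Its probe set read 1067, 1037 and 1211 in the control livers and 421, 384 and 679 in the isolated livers, with no overlap of the groups. The means were 1105 ± 93.4 and 495 ± 161 (SD, n = 3 per group), and it fell 2.30-fold (limma adjusted p = 0.00084). Its second tested probe set fell 1.95-fold (limma adjusted p = 0.0413), and reads the same gene in the same RNA, so it is no independent replicate. Without the intensity trend in the variance model the first did not pass (limma adjusted p = 0.124). Over the other alternatives that kept at least 2 arrays per group, its limma adjusted p ran from 4.36e-05 to 0.0149. Cebpa, the C/EBP gene that sustains hepatocyte expression of Hamp, read 1335 ± 221 and 1396 ± 213 (SD, n = 3 per group).

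In the list of hepcidin regulation by IL6 and STAT3, Cebpb was the 1 call among 9 tested genes, and the median log2 difference was -0.15. Creb3l3, a transcription factor of the endoplasmic reticulum membrane that can act on Hamp, had a log2 difference of -0.15 ± 0.15 (SE). Il6, the cytokine that induces Hamp through STAT3, was named after its values were seen and was below the filter, with signals from 0.675 to 10.7 over the 6 arrays.

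In the list of hepcidin regulation by BMP and SMAD, 0 of 18 tested genes were called by limma, 3 were lower and 2 higher at an unadjusted p under 0.05, and the median log2 difference was -0.06. Tmprss6, a protease that restrains hepcidin signalling, had a log2 difference of -0.08 ± 0.15 (SE). Fgl1, a secreted liver protein, read 1437 ± 193 in controls and 996 ± 230 in isolated mice, without overlap, and was not called (limma adjusted p = 0.132). It passed without isolated replicate 1 (limma adjusted p = 0.0422). That array was the highest isolated one, at 1221, so leaving it out must widen the difference. Id1, Smad7 and Smad6, targets of this pathway that were named after their values were seen, had log2 differences of -0.69 ± 0.30, -0.53 ± 0.28 and 0.61 ± 0.26 (SE). The groups overlapped in all 3, and none of them was called. For Id1, isolated replicate 1 read 25.7 and the other 5 arrays 64.7 to 97.0.

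In the list of the transferrin cycle and iron transport, 0 of 14 tested genes were called by limma, and 2 were lower at an unadjusted p under 0.05. Steap4, a metalloreductase, had a log2 difference of -0.71 ± 0.22 (SE) and a limma adjusted p of 0.144. It read 854, 1738 and 1633 in the control livers and 736, 683 and 1109 in the isolated livers, so the groups overlapped. It passed without control replicate 1 (limma adjusted p = 0.00499). That array was the lowest control, so leaving it out must widen the difference. Cp, the ferroxidase ceruloplasmin, had a log2 difference of -0.11 ± 0.12. Scara5, a ferritin receptor named after its values were seen, read 121, 123 and 154 in the control livers and 87.0, 58.6 and 96.2 in the isolated livers. Its groups did not overlap, and it was not called (limma adjusted p = 0.111), though it passed with quantile normalization and with a stricter filter (limma adjusted p = 0.0489 in each).

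The list of ferritin handling and iron sensing had 0 calls by limma among 12 tested genes, with 1 higher at an unadjusted p under 0.05. Pcbp1, a chaperone that hands iron to ferritin, had a log2 difference of 0.24 ± 0.14 (SE), and the mitochondrial chaperone Hspa9 one of -0.03 ± 0.13. Among 10 tested genes of haem and haemoglobin scavenging, 0 were called by limma and 1 was lower at an unadjusted p under 0.05. Hpx, which binds free haem, and Hp, which binds free haemoglobin, had log2 differences of -0.04 ± 0.11 and -0.21 ± 0.12. Among 13 tested genes of iron-sulfur cluster assembly, 0 were called by limma, with 1 in each direction at an unadjusted p under 0.05. Fdx1 had a log2 difference of 0.02 ± 0.15 and Glrx5 one of 0.18 ± 0.13.

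**Figure D4:**
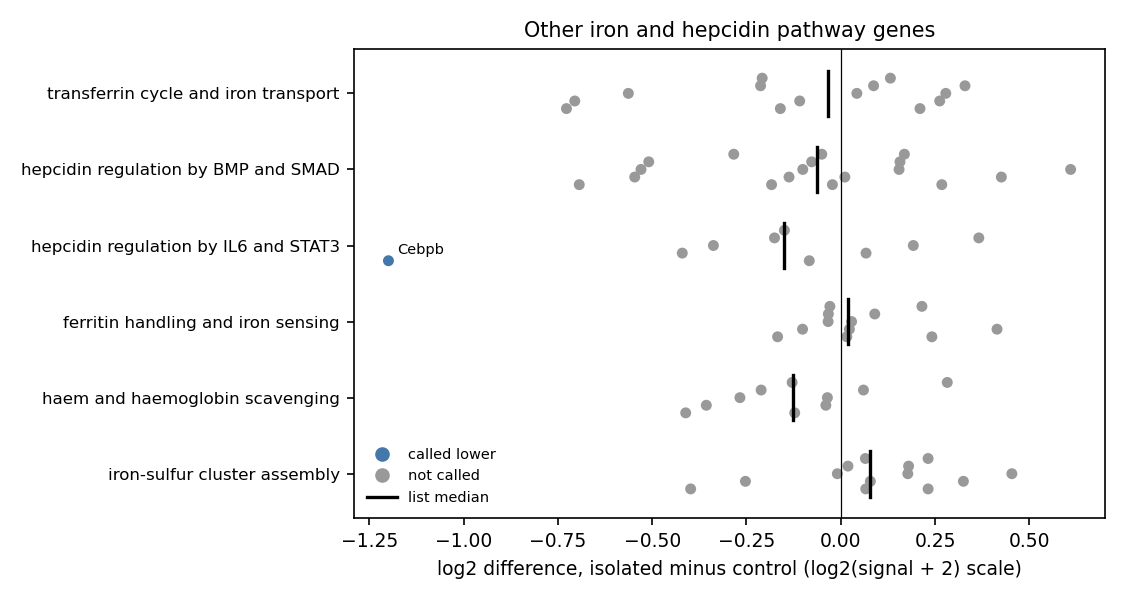
Log2 difference, isolated minus control on the log2(signal + 2) scale, for each tested gene of the 6 lists of other iron and hepcidin genes, with 1 point per gene and a bar for the list median. Cebpb at -1.20 is the 1 called gene, and the list medians lie between -0.15 and 0.08.

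Cell types that carry much transferrin receptor, or that lie beside hepatocytes, were read from marker lists. In bulk tissue, fewer cells of a type and less RNA per cell cannot be told apart. Erythroid cells carry much Tfrc, and 5 of their markers were measured, of which 2 passed the filter and 0 were called by limma, also 0 at an unadjusted p under 0.05. The summed signal of that list was 824 to 1080 in controls and 635 to 1030 in isolated mice, most of it from Alas2. The 2 tested ones, Alas2 and Klf1, had log2 differences of -0.07 ± 0.19 and -0.15 ± 0.37 (SE). The erythroid genes Hba-a1, Epb42 and Slc4a1 were all below the filter. Of these, Slc4a1 read 18.2 to 28.2 in controls and 9.62 to 15.0 in isolated mice.

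Of 11 Kupffer cell and macrophage markers measured, 10 were tested and 0 called by limma, also 0 at an unadjusted p under 0.05. Their summed signal was 3000 to 3500 in controls and 2380 to 3480 in isolated mice. Of 10 sinusoidal endothelial markers tested, 0 were called, also 0 at an unadjusted p under 0.05, with sums of 2350 to 3110 and 2420 to 2800. Of 9 stellate cell markers tested, 0 were called by limma and 2 were higher at an unadjusted p under 0.05, with sums of 1940 to 2420 and 2080 to 2570. Of 8 lymphocyte markers measured, 2 were tested and 0 called by limma, also 0 at an unadjusted p under 0.05, with sums of 215 to 273 and 242 to 346. Their part in the Tfrc difference was not tested.

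Some fat markers, Adipoq and Retn among them, read highest on isolated replicates 2 and 3. Of 8 measured, 4 were tested, of which Plin4 was called lower and 0 were called higher by limma, with 1 higher at an unadjusted p under 0.05. That 1 was Fabp4, the brightest of the list (limma adjusted p = 0.0578). It read 117, 202 and 157 in the control livers and 203, 300 and 404 in the isolated livers. The summed signal of the list, with Fabp4 in it, was 279 to 416 on control arrays but 328, 529 and 586 on isolated replicates 1, 2 and 3. Adipoq and Retn were below the filter. Adipoq read 4.38 to 15.6 in controls but 3.78, 59.5 and 54.8 on isolated replicates 1, 2 and 3. Lep stayed at or under 3.30 on all 6 arrays. Cidea and Cidec read highest on control replicate 2. Lipe read highest on isolated replicate 2, at 76.7, and lowest on isolated replicate 3, at 38.6. The part of fat tissue in the Tfrc difference was not tested.

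Likeness to Tfrc and to Hamp was measured as the correlation of deviations from the group means, over 6 arrays and 10985 other genes. These values describe 6 arrays that share their hybridisation and scale, and with so few arrays many genes score high. For Tfrc, Alg10b (0.972), Nr2f1 (0.970) and Knop1 (0.968) came first, and 9 genes reached 0.95. For Hamp, Lancl2, Dyrk1b and Ranbp10 came first, all above 0.99, and 277 genes reached 0.95. Between probe sets of 1 member gene, the same correlation was 0.638 for the tested Tfrc pair, 0.94 for Hamp, 0.965 for Slc40a1, 0.968 for Tfr2, 0.973 for Fth1 and 0.98 for Aco1. For the 4 Slc11a2 probe sets it ran from -0.601 to 0.919. Probe sets of different genes could score as high: Tfr2 1425381_a_at and Slc40a1 1448566_at gave 0.96.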

How the data were processed

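RNA from 6 liver samples was read on 1 Affymetrix array each. The deposited values are intensities from MAS5, per the submitters' processing notes, which name neither a scaling target nor a version. The members, gene lists and tests were chosen with earlier results of these data known. The 64 control probe sets were set apart. limma 3.58.1 in R 4.3.3 fitted 2 groups to log2(value + 2) of the 22519 probe sets in the upper 50% by mean, and eBayes moderated variances with an intensity trend (prior weight 16.1 degrees of freedom against 4 from the arrays). Two-sided p-values were adjusted by Benjamini-Hochberg across every tested probe set.

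The platform annotation gave 1 symbol to 34945 probe sets, several to 932 and none to 9160. A gene outside the member list was read from the brightest tested probe set that carries its symbol alone (10986 genes). All member probe sets were named, and of each other list the called genes and the 2 with the highest mean. Id1, Smad6, Smad7, Scara5, Il6 and some cell type markers were named outside this rule, after their values were seen. Of 167 list symbols, 145 were measured. All 10 members matched the RefSeq gene table.

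Data of the isolated against control comparison were also simulated, with 22519 probe sets of which 200 changed. In these, 72% of changes of 1 log2 unit and 98% of changes of 2 were recovered. Of 174 calls in the simulated data, 4 were false. These rates hold for the simulated variation only. The simulation gave all probe sets of like brightness the same spread, with normal noise. On the real arrays the spread also differed between probe sets of like brightness, since the prior weight was limited to 16.1 degrees of freedom. The rates therefore do not describe the real arrays and may be too favourable for them. Precision is limited by the number of arrays, 3 per group. Alternatives covered pseudocount, filter, normalization, variance model, array weights, replicate block and each array left out. Figures were drawn with matplotlib 3.10.9.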

Additional observations from a re-analysis of the deposited data

How the results depend on the processing

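The Tfrc probe set 1452661_at kept its direction and its call under the 16 alternatives that kept at least 2 arrays per group, with a log2 difference of 1.44 to 1.61. A further fit, chosen after seeing the data, kept isolated replicate 1 as the 1 isolated array and assumed that it varies like the other arrays, so its calls support nothing. The count of member probe sets called higher, 2 as reported, was 1 without a filter, with a stricter filter (where 1422966_a_at was not tested), with quantile normalization, without the intensity trend, with a robust trend and with isolated replicate 1 as the 1 isolated array. With each array left out it ran from 1 to 2, and 0 were called lower throughout. Among the other pathway genes, calls lower, 1 as reported, numbered 2 with a stricter filter, with quantile normalization and with isolated replicate 1 as the 1 isolated array, 0 without the intensity trend, and 1 to 2 with each array left out. The cause of these changes was not tested.

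No difference that turned its sign was called. Slc11a2 1426441_at turned to -0.018 with quantile normalization, -0.017 with array weights, -0.12 without control replicate 1, -0.11 without isolated replicate 3 and -0.095 with isolated replicate 1 as the 1 isolated array, where 1417584_at turned to -0.34. With each array left out, 1426441_at ran from -0.12 to 0.079, Fth1 1427021_s_at from -0.072 to 0.039 and Aco1 1456728_x_at from -0.11 to 0.054. Fth1 1427021_s_at turned to 0.020 with median centring, 0.0081 with array weights, 0.039 without isolated replicate 2 and 0.042 with isolated replicate 1 alone. Aco1 1456728_x_at turned to 0.0052 with median centring, 0.024 with array weights, 0.028 without control replicate 3, 0.054 without isolated replicate 2 and 0.075 with isolated replicate 1 alone. The 3′ to 5′ ratio difference was -0.025 with a pseudocount of 1 and -0.0018 for 3′ over middle, and ran from -0.12 to 0.17 with each array left out.

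With the replicate number as a block, 2 member probe sets were called higher and 1 pathway gene lower, the same counts, and calls over all probe sets went from 174 to 265 higher and from 193 to 248 lower. Deviations of same-numbered arrays correlated at 0.0078, 0.044 and 0.0049, so the numbers do not show a pairing. Over all probe sets, calls without the intensity trend were 15 higher and 16 lower, without a filter 81 and 101, 115 higher without control replicate 2, 97 higher without isolated replicate 3, 88 higher with isolated replicate 1 alone, and 82 lower without control replicate 3. Dim probe sets, such as 1422967_a_at, limit what can be said of low signals.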
